A study of Homo sapiens with 23 samples.

Results

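CaSki cells transfected with a synthetic mimic of the microRNA miR-124-3p were compared with CaSki cells transfected with a negative control. CaSki is an established HPV-positive line of cervical squamous carcinoma. Both groups received 100 nM of their oligonucleotide and hold 3 samples each, so this comparison uses 6 of the 23 samples of the series. The labels number the replicates, with the same numbers across groups, and do not say what samples of one number share. The labels name no separate cultures, so p-values speak of no more than variation between samples, and that variation may be technical. RNA was sequenced after polyA selection. The comparison covers all 61217 genes that the authors' deposited table lists, chosen by the table alone and not by any value in it. The table gives a log2 fold change (mimic over control), an average log2 CPM (a depth-scaled count, over the libraries), and an F score with its p-value and FDR for each gene. Every log2 fold change, level and adjusted p (the FDR) printed here is from the authors' deposited table unless another source is named. A gene was called lower or higher at an FDR under 0.05, and counted as measured where its average log2 CPM was not below 0, which 15486 genes reached. No values of single samples are analysed here, so depth is unknown and whether the samples of the 2 groups overlap for a gene cannot be said. The other groups used for comparison are CaSki with mimics of miR-23b-3p or miR-218-5p (3 samples each, against the same 3 controls) and C-33A, a line of HPV-negative cervical carcinoma, with the miR-124-3p mimic (2 samples) or the negative control (3 samples), all at the same dose.

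miR-124 is the microRNA most typical of neurons, and it is scarce in epithelial cells. A mature microRNA guides an Argonaute protein to messenger RNAs whose 3′ UTR pairs with its seed, the bases 2 to 8 from its 5′ end, and the bound RNA is then deadenylated, decayed or less translated. In neural progenitors miR-124 is known for repressing non-neuronal genes, among them the splicing repressor PTBP1 and the small CTD phosphatases that act with the REST repressor. Cells that lack the microRNA, when given a mimic, show the falls of its direct targets and any later changes together, and polyA RNA measured at a single time does not separate them.

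The sites looked for were the 7 letters GTGCCTT, which pair with seed bases 2 to 8, on the transcript strand of the 3′ UTR. A match followed by A is an 8mer, a match with another letter after it is a 7mer-m8, TGCCTTA without the leading G is a 7mer-A1, and TGCCTT alone is a 6mer. Of 18943 listed genes with an annotated 3′ UTR (that of the longest coding transcript in GENCODE release 29, GRCh38), 2650 (14%) held GTGCCTT and 536 (2.83%) held the 8mer. The 8mer sites below belong to the largest falls, and the last 4 sites show the shorter classes in genes that fell as far. Capitals mark the site, and the lower case letters are the 8 bases on each side.
VAMP3 8mer: aacaggctGTGCCTTAttttgata
STX10 8mer: ttgcccctGTGCCTTAtacacgtg
DNAJC1 8mer: tacgtcatGTGCCTTAgtaaaaaa
TMEM134 8mer: cctgctctGTGCCTTAacttattc
SERP1 8mer: catagcagGTGCCTTAttctttgc
CD164 first 8mer: aaagaacaGTGCCTTAgaagacag
CD164 second 8mer: gttttcaaGTGCCTTAattgttta
ITGB1 first 7mer-m8: gtcacattGTGCCTTtttgacct
ITGB1 second 7mer-m8: tgttttaaGTGCCTTtagtttta
ATP6V0E1 first 7mer-A1: ccattagcTGCCTTAaacgttaa
ATP6V0E1 second 7mer-A1: catttgaaTGCCTTAttctacaa
The VAMP3 site lies at chr1:7780082-7780089 on the + strand, 437 bases into a 3′ UTR of 1787, with 7mer-m8 sites at positions 140 and 202 before it. The STX10 site is at chr19:13144104-13144111 and the DNAJC1 site at chr10:21756580-21756587, both on the - strand and both within 51 bases of the end of their 3′ UTR. The remaining 8mers are on the - strand too, at chr11:67464427-67464434 (TMEM134), chr3:150542806-150542813 (SERP1), chr6:109368193-109368200 and chr6:109367192-109367199 (CD164). The ITGB1 sites are at chr10:32901328-32901334 and chr10:32900469-32900475 (- strand), and those of ATP6V0E1 at chr5:173034483-173034489 and chr5:173034511-173034517 (+ strand).

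A group of genes in this table goes against the rest and touches how other values are read. Of the 15486 measured genes, 205 were listed at a log2 change of -6 or lower, the lowest at -17.3, but none of them was called: their p-values ran from 0.0665 to 0.252. No measured gene was listed at 2 or higher. With position known for 199 of the 205, 55 start on chromosome 6 between 28 and 34 Mb, the region of the major histocompatibility complex, where 103 measured genes start. Among them are genes that most cells use: the ribosomal protein gene RPS18 was listed at -17.3, the tubulin gene TUBB at -15.1 and the chloride channel gene CLIC1 at -15.8. The tables of the other 2 CaSki mimics share the control libraries, and RPS18 was listed there at -16.1 (miR-23b-3p) and -14.8 (miR-218-5p), and TUBB at -17.4 and -16.9. Against the mean of those mimics, in which the control cancels, the 205 genes had a median log2 change of 0.287. In the C-33A table, 140 of the 205 were at the lowest level listed. So large a difference with so high a p means that the spread within a group was large for these genes. Leaving them out was 1 alternative setting, given below, and without a refit their part in other results was not tested further. All 11 epithelial markers reached an average log2 CPM of 1, against 2 of 10 fibroblast, 0 of 11 leukocyte and 0 of 8 endothelial markers. The fibroblast markers were FAP, at an average log2 CPM of 6.55, and COL1A1, at 1.89; the highest leukocyte marker was at 0.0662 and the highest endothelial marker at 0.34.

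With the miR-124-3p mimic 187 genes were called: 63 rose and all the rest fell. The falls and rises are 0.203% and 0.103% of all listed genes, and 0.801% and 0.4% of measured genes (1 risen gene, FRMPD1, lies below that level). The shares of measured genes are the background for every gene list below, and no list was tested against them. The falls ran from 0.53 to 1.48 on the log2 scale with a median of -0.719, and 21 of them (16.9%) were at least 1. The rises ran from 0.528 to 2.11 with a median of 0.78, and 15 (23.8%) were at least 1. Of the 187, 184 are protein coding. The falls had an average log2 CPM of 5.87 at the median and the rises 5.05, against 4.14 for measured genes. With p adjusted over measured genes only, 216 fell and 158 rose.

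**Figure D1:**
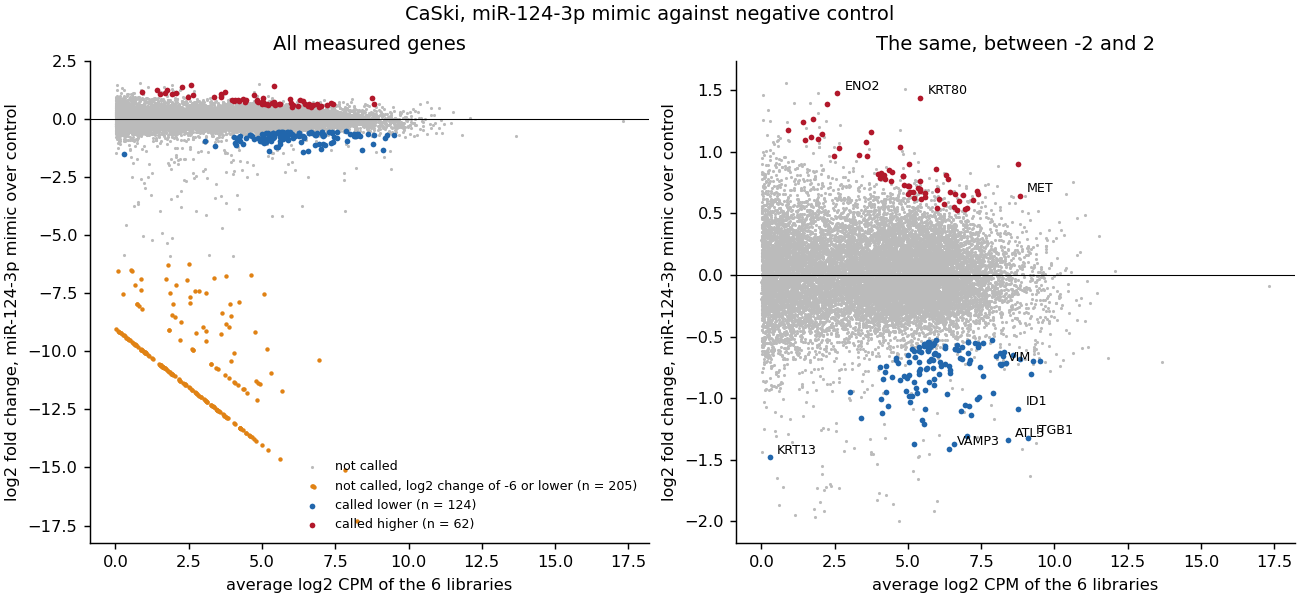
Log2 fold change of the miR-124-3p mimic over control (y axis) against the average log2 CPM of the 6 libraries (x axis), 1 point a measured gene, with called falls in blue, called rises in red and the 205 uncalled genes at -6 or lower in orange. The left panel holds all measured genes and the right panel those between -2 and 2; the called falls lie between -1.48 and -0.53, far above the orange points.

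VAMP3, a SNARE protein that fuses recycling endosomes with the plasma membrane, had the largest fall among genes whose average log2 CPM was at least 1. It fell by 1.41 (SE 0.124, adjusted p = 7.03e-08) and carries 3 sites of 7 or 8 bases. STX10, a SNARE of the trans-Golgi network, fell by 1.21 (SE 0.139, adjusted p = 5.17e-06). These were the 2 falls among 31 measured SNARE and fusion genes; of the others with the lowest p, VAMP2 was at 0.77 (adjusted p = 0.226), STX6 at 0.41 and STX2 at -0.55, none of them called. Other called falls, picked here as examples from the authors' deposited table, were not part of a list. NECAP2, a clathrin coat protein, was at -1.09, the clathrin adaptor subunit AP1M2 at -0.93, the Golgi adaptor GGA2 at -0.8 and the cargo receptor TMED1 at -0.99. The small GTPases RAB34 and RAB38, which direct vesicle transport, were at -1.06 and -0.91. LITAF, an endosomal membrane protein, fell by 1.3 (SE 0.125, adjusted p = 1.87e-07), with 2 sites of the 7mer-A1 class and no GTGCCTT.

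In the endoplasmic reticulum and lysosome, the calls were 1 to 3 members of larger groups, most of whose genes did not pass the test. Over all measured genes 0.801% fell and 0.4% rose, and the groups were not tested against these shares. ATL3, a GTPase that fuses reticulum tubules, fell by 1.34 (SE 0.126, adjusted p = 1.87e-07) and has 5 GTGCCTT matches, the most of any called gene. SERP1, a stress-associated partner of the translocon, fell by 1.13 (SE 0.126, adjusted p = 2.86e-06), and the tubule protein RTN3 rose by 0.78 (SE 0.145, adjusted p = 0.0123). Those 3 were the called genes of 36 measured for tubule shaping, translocation and cargo exit. MAGT1, an accessory subunit of oligosaccharyltransferase, fell by 0.95 (adjusted p = 9.74e-05) as the only call of 10 measured subunits, next to OSTC at -0.47 (adjusted p = 0.217). ATP6V0E1, a small membrane subunit of the vacuolar proton pump, fell by 1.37 (SE 0.133, adjusted p = 1.87e-07) as the only call of 18; its paralog ATP6V0E2 was at 1.1, short of the threshold (adjusted p = 0.0775). The lysosomal sialomucin CD164 fell by 1.1 (SE 0.129, adjusted p = 6.44e-06) and the tetraspanin CD151 by 0.99 (SE 0.134, adjusted p = 9.09e-05), the 2 calls among 23 lysosomal membrane and tetraspanin genes. DNAJC1, a chaperone partner in the membrane of the endoplasmic reticulum, fell by 1.18 (SE 0.136, adjusted p = 5.17e-06).

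In adhesion and the cytoskeleton calls went both ways. ITGB1, the beta subunit shared by most matrix-binding integrins, fell by 1.32 (SE 0.133, adjusted p = 4.32e-07). ITGB4, the beta subunit of hemidesmosomes, rose by 0.68 (SE 0.128, adjusted p = 0.00711). None of the other 10 measured integrin subunits was called, the alpha subunit ITGA6, which pairs with both, standing at 0.24. The basement membrane collagen COL4A1 fell by 1.06 (adjusted p = 0.000521) and was the only call of 20 matrix genes. LAD1, an anchoring filament protein of the basement membrane, fell by 1.06 (adjusted p = 1.68e-05), the junction protein F11R by 0.77 (adjusted p = 0.00106) and the intermediate filament VIM by 0.73 (adjusted p = 0.00335). The scaffold IQGAP1 fell by 0.72 and the GTPase RHOG by 0.95, while RHOB rose by 0.62 and the actin organiser SHROOM2 by 1.16. Keratins gave 1 call each way of 14 measured: KRT80 rose by 1.44 (SE 0.187, adjusted p = 0.00411), and KRT13, a keratin of stratified mucosa, fell by 1.48 (SE 0.339, adjusted p = 0.0462) from an average log2 CPM of only 0.28.

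Among regulators of the cell cycle, transcription and signalling, CTDSP1, a small CTD phosphatase that works with REST, fell by 1.37 (SE 0.148, adjusted p = 1.75e-06) and its paralog CTDSPL by 0.56 (adjusted p = 0.0438). CTDSP2, the remaining paralog, was at -0.38 and REST itself at 0.28, neither called. Of the PTB splicing repressors, PTBP3 fell by 0.63 (adjusted p = 0.0151), PTBP1 stood at -0.39 (SE 0.123, adjusted p = 0.349) and PTBP2 at 0.2. SKP2, which marks the inhibitor p27 for breakdown, fell by 1.01 (SE 0.121, adjusted p = 1.04e-05), and the G1 kinase CDK4 by 0.63 (SE 0.126, adjusted p = 0.0128), the 1 call of 34 G1/S genes; CDK6 was at -0.4 (adjusted p = 0.693). No gene was called of 32 listed for G2/M and cytokinesis, 20 of the p53 pathway, 15 of the BCL2 family or 27 of NF-kB and STAT3. With 0.801% of measured genes lower and 0.4% higher, lists of this size are too small to set 0 apart from the background. Related genes outside these lists were called lower. Examples are the mitotic genes ZWINT at -0.55 (adjusted p = 0.0486) and SPDL1 at -0.54 (adjusted p = 0.0438), and the JAK kinase TYK2 at -0.58 (adjusted p = 0.0468). ID1, a BMP-induced inhibitor of differentiation, fell by 1.09 (SE 0.166, adjusted p = 0.00482), as the 1 call of 29 TGF-beta, BMP and activin genes. The RAS relative RRAS fell by 1.12 (SE 0.175, adjusted p = 0.00073). The receptor MET rose by 0.64 (adjusted p = 0.0154) and the kinase MAP2K6 by 1.1 (adjusted p = 0.0411). Those were the 3 calls of 38 listed RAS and MAPK genes. Not among these 3, the p38 kinase MAPK11 was at -0.75 (adjusted p = 0.0462) and KSR1 at 1.25 (adjusted p = 0.0248). The retinoic acid receptor RARG and the retinal-making enzyme RDH10 fell by 0.9 and 0.82, and, as the authors' deposited table lists it, the lactate transporter SLC16A1 by 0.75.

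The highest of the 63 rises, FRMPD1, was at 2.11 (SE 0.379, adjusted p = 0.00411), at an average log2 CPM of -0.35. ENO2, the neuronal enolase, rose by 1.48 (SE 0.226, adjusted p = 0.000638) and was the only call of 14 measured neuronal genes; the dendritic MAP2 was at 1.25 with an adjusted p of 0.0504 that did not pass. ANKRD22 rose by 1.39 (adjusted p = 0.0022), SAMD10 by 1.27 (adjusted p = 0.0155) and the RAS scaffold KSR1 by 1.25 (adjusted p = 0.0248). DIO2, the deiodinase that activates thyroid hormone, rose by 1.12 (adjusted p = 0.0361) and CASTOR2 by 1.04 (adjusted p = 0.00317). SKIDA1 and OLFML2A, also among the 12 largest rises, were at 1.1 and 1.08. The microtubule protein MAP1B rose by 0.96, the ligand WNT7A by 0.9, the large scaffold AHNAK2 by 0.9 and WWTR1 (TAZ, the Hippo co-activator) by 0.78 in the authors' deposited table. ANKRD52, a subunit of the phosphatase that acts on Argonaute, rose by 0.86 (SE 0.139, adjusted p = 0.00131), the 1 call of 23 measured small RNA machinery genes; AGO2 was at 0.52 (adjusted p = 0.119). The non-coding LINC02009 and LINC00294 rose by 0.98 and 0.76, and SNHG3 was the non-coding gene that fell, by 0.65.

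The seed match was in most of the falls and in few of the rises. GTGCCTT was in the 3′ UTR of 91 of 121 falls with an annotated 3′ UTR (75.2%), 11 of 60 rises (18.3%) and 16.3% of the 11702 measured genes that were not called. The 8mer was in 38 falls (31.4%), 1 rise (1.67%) and 3.26% of genes not called, and 2 or more matches were in 26 falls (21.5%) against 2.68%. Over all 16384 sequences of 7 letters, GTGCCTT had the largest excess in the 3′ UTRs of falls over genes not called, 58.9 percentage points, followed by the overlapping AGTGCCT (33.7 points) and TGTGCCT (32 points). The same count over the rises ranked GTGCCTT at 12036. The seed match of miR-218-5p, AAGCACA, was in 15.7% of falls, 31.7% of rises and 15.4% of genes not called. That of miR-23b-3p, AATGTGA, was in 15.7% of falls, 36.7% of rises and 21% of genes not called. The rises have longer 3′ UTRs (median 2690 bases, against 1320 for falls and 1350 for measured genes), whose part in these shares was not tested. These shares and the medians that follow are descriptions, with no test, since genes are not independent replicates.

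Genes with an 8mer or 7mer-m8 had the lowest medians and the largest shares of falls. Against the control, the medians of the shorter classes were not below that of genes without a site. Against the other mimics they were, by less than for the longer classes, and the 7mer-A1 class also had a larger share of falls. By strongest site, the median log2 change was -0.139 for the 421 genes with an 8mer, -0.0522 for the 1587 with a 7mer-m8, 0.0347 for the 1096 with a 7mer-A1, 0.0409 for the 2885 with a 6mer and -0.0446 for the 5894 with none. Falls were called in 9.03%, 3.34%, 0.73%, 0.243% and 0.254% of these classes. Against the mean of the other 2 CaSki mimics, where control libraries cancel, the order was 8mer -0.226, 7mer-m8 -0.107, 7mer-A1 -0.0308, 6mer -0.00403 and none 0.00398. The share of called falls was higher with a larger number of 8mer or 7mer-m8 sites, from 0.304% with none to 3.9% with 1, 7.47% with 2 and 8.33% of the 60 genes with 3 or more. Genes with 3 or more sites that fell were ATL3 (5 sites), CTDSP1 and RHOG (4 each), and VAMP3 and CEBPA (3 each). Setting all genes with an 8mer or 7mer-m8 against all without, the medians differed by -0.0642. This value was -0.188 as the mean over 10 classes of 3′ UTR length, and 0.0522, of opposite sign, when 6mer sites were counted; the cause was not tested.

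**Figure D2:**
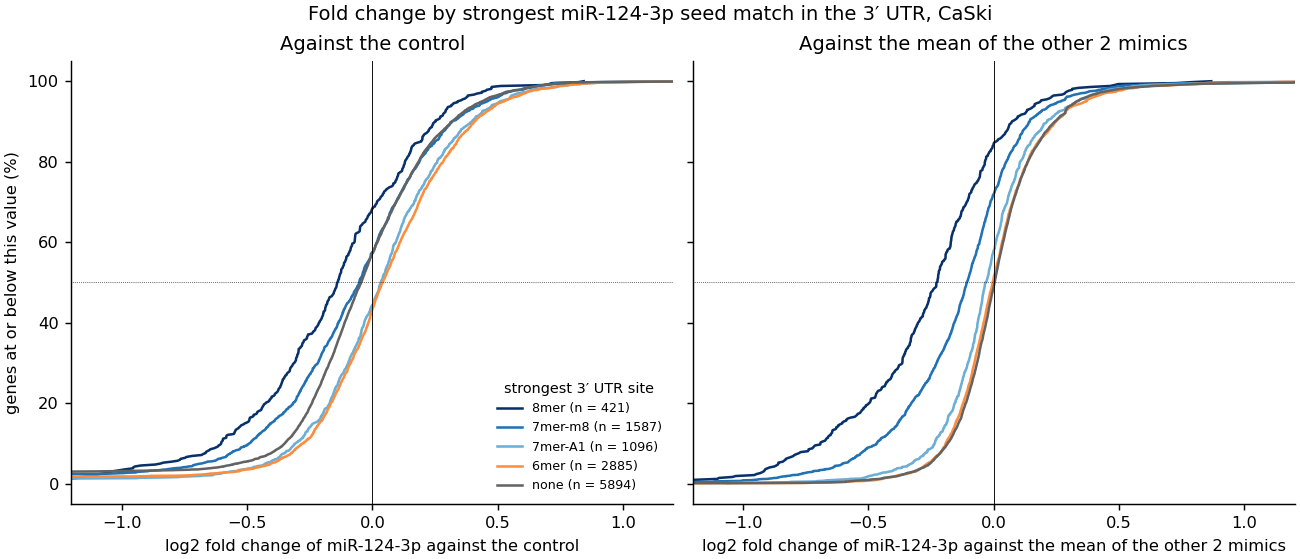
Cumulative share of measured genes (y axis, percent) at or below each log2 fold change (x axis), by strongest miR-124-3p seed match in the 3′ UTR, against the control (left) and against the mean of the other 2 CaSki mimics (right). The 8mer curve, with 421 genes, lies furthest left in both panels, and the 6mer and no-site curves, apart on the left, meet on the right.

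Context around the site went with the change too. Among genes with a 3′ UTR under 500 bases, the median was -0.399 for the 80 with an 8mer or 7mer-m8 and -0.112 for the 2585 without, and 20% of the former were called lower against 0.309%. In 3′ UTRs of 4000 bases or more, the medians were 0.0373 and 0.107, with falls in 1.16% and 0%. For genes with a single 8mer or 7mer-m8 and no 7mer-A1, those with the site within 300 bases of an end of the 3′ UTR had a median of -0.191 and 8.45% called lower, against -0.00902 and 1.7% for sites further in. The former have shorter 3′ UTRs (median 1160 bases against 3100), and the parts of length and position were not told apart. In the same genes, where A and U made up at most 50% of the 16 bases beside the site, 2.18% of genes were called lower, against 6.03% in the middle class and 5.8% where they made up over 62.5%. The medians of these classes against the control, -0.0682, -0.0562 and -0.107, did not follow that order. Against the other 2 mimics they were -0.0606, -0.137 and -0.177, and in C-33A 0.00681, -0.154 and -0.179. Both of these sets were lower with more A and U. In coding sequence the same match showed little: of 618 genes with it there and no 3′ UTR site, 1 was called lower (0.162%), against 14 of 5276 (0.265%) without it.

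Not every fall had a site. Of the 121 falls, 30 lacked GTGCCTT: 8 had a 7mer-A1, 7 a 6mer only and 15 no match of 6 bases. The 7mer-A1 genes were ATP6V0E1, LITAF, F11R and GPX8 (2 such sites each) and ELOVL1, TMEM263, TUBB6 and CDK4 (1 each). Those with no match were ID1, HADHB, MAD2L2, SYNGR2, COA4, SLC2A4RG, HSD17B10, MAN2A1, MESD, MFSD1, ADAMTS1 and the histone genes H2AC13, H2BC4, H2BC21 and H2BC7. Of the 30, 2 (COA4 and TUBB6) held GTGCCTT in another coding transcript. In 4 (MFSD1, ATP6V0E1, F11R and TMEM263) the coding sequence held it. The 15 had a median log2 change of -0.633, and of -0.469 against the other mimics; for the 91 falls with GTGCCTT these values were -0.741 and -0.691. HADHB, a subunit of the mitochondrial trifunctional protein, fell by 0.97 (SE 0.126, adjusted p = 4.34e-05) and MAD2L2, of translesion synthesis and the shieldin complex, by 0.87 (SE 0.137, adjusted p = 0.00073), next to SHLD2, another shieldin subunit, at -0.95 (adjusted p = 0.000107) with an 8mer.

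Replication-dependent histone genes, whose transcripts peak in S phase and mostly lack a polyA tail, were low together. All 21 measured members of the list were below 0, with a median of -0.586, where 0.801% of measured genes were called lower. The 4 called members were H2BC4, H3C10, H2BC9 and H2BC21, at -0.69, -0.7, -0.65 and -0.68. H2AC13, H2AC21, H3C13 and H2BC7, outside the list and chosen after their values were seen, also fell. They are near-identical copies, so how reads were shared between them is uncertain. H2BC4 was at -0.49 with miR-23b-3p and -0.34 with miR-218-5p against the same controls, and the list's median against those mimics was -0.192. Ribosomal protein genes had a median of -0.309 (34 of 35 below 0, none called), and of 0.0107 against the other mimics. The 13 mitochondrially encoded genes went the other way, with a median of 0.609, none called, and of -0.422 against the other mimics. In C-33A, which has its own controls, the medians were -0.403 for 19 histone genes and -0.288 for 34 ribosomal protein genes. The 13 mitochondrially encoded genes were at -0.041 there. What sets these groups apart was not tested.

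Fold changes followed transcript length whether or not a site was present. Among genes without GTGCCTT, the median ran from -0.238 for transcripts under 1000 bases to 0.00446 for those of 3000 to 4000 and 0.213 for those of 8000 or more. With a site the medians ran from -0.306 (1000 to 2000 bases, 105 genes) to 0.0916 (8000 or more, 434 genes); the shortest class holds 4 such genes. Called rises had a median transcript length of 6420 bases and falls of 2920, against 3500 for measured genes. Against the other 2 mimics the genes without a site were flat, at 0.0112 in the shortest class and -0.0091 in the longest. Those with one remained lower, with medians of -0.198 at 1000 to 2000 bases and -0.0863 at 8000 or more. In C-33A with miR-124-3p, against its own controls, genes without a site also followed length. Their medians there were -0.224 in the shortest class and 0.0953 in the longest. With a smooth trend on length and GC content subtracted, 106 genes fell, 86 of them also without it, and 36 rose, 28 of them also without it.

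**Figure D3:**
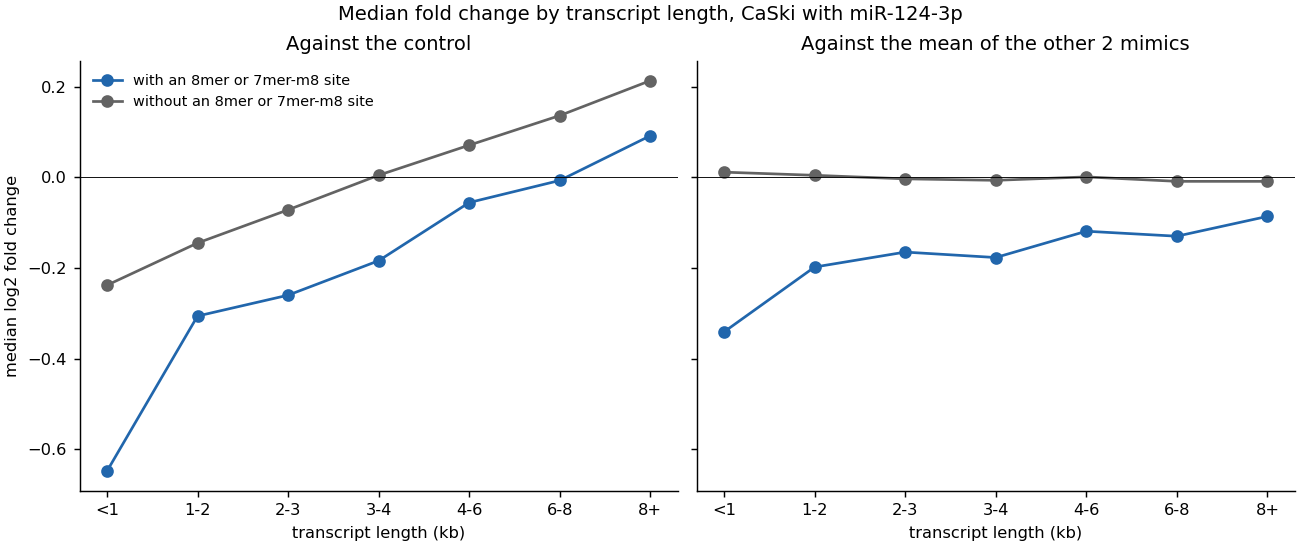
Median log2 fold change (y axis) by transcript length in kilobases (x axis), for measured genes with (blue) and without (grey) an 8mer or 7mer-m8 site, against the control (left) and the mean of the other 2 CaSki mimics (right). The grey line climbs from -0.238 to 0.213 on the left and stays near 0 on the right, with the blue line below it in each class.

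Genes that had been described as miR-124 targets in other cells were lower as a group. Of 54 on the list, 51 were measured, 17 fell and none rose, with a median of -0.396, against 0.801% of measured genes falling and a median of -0.013. GTGCCTT was in the 3′ UTR of 42 of the 51. The list was drawn up with earlier results of these data known, so its direction is not independent evidence. Beside those named above, the collagen-modifying enzyme PLOD3 (-0.87), the pseudokinase TRIB3 (-0.84), the transcription factor CEBPA (-0.79) and the polarity protein LRRC1 (-0.67) fell. CAV1, the coat protein of caveolae, was at -0.58 (SE 0.14, adjusted p = 0.0646), UHRF1 at -0.52 (adjusted p = 0.085) and ANXA5 at -0.52 (adjusted p = 0.1), all short of the threshold. Targets with 1 or more 8mers that were not called include STAT3 at -0.2, ROCK1 at -0.29, AKT2 at -0.3, MAPK14 at -0.36 and SNAI2, with 3 sites, at -0.17. The Notch ligand JAG1 and the corepressor RCOR1 were at 0.18 and 0.27, above 0 despite a 7mer-m8 each. Against the other mimics the list had a median of -0.532, and JAG1 was at -0.34.

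**Figure D4:**
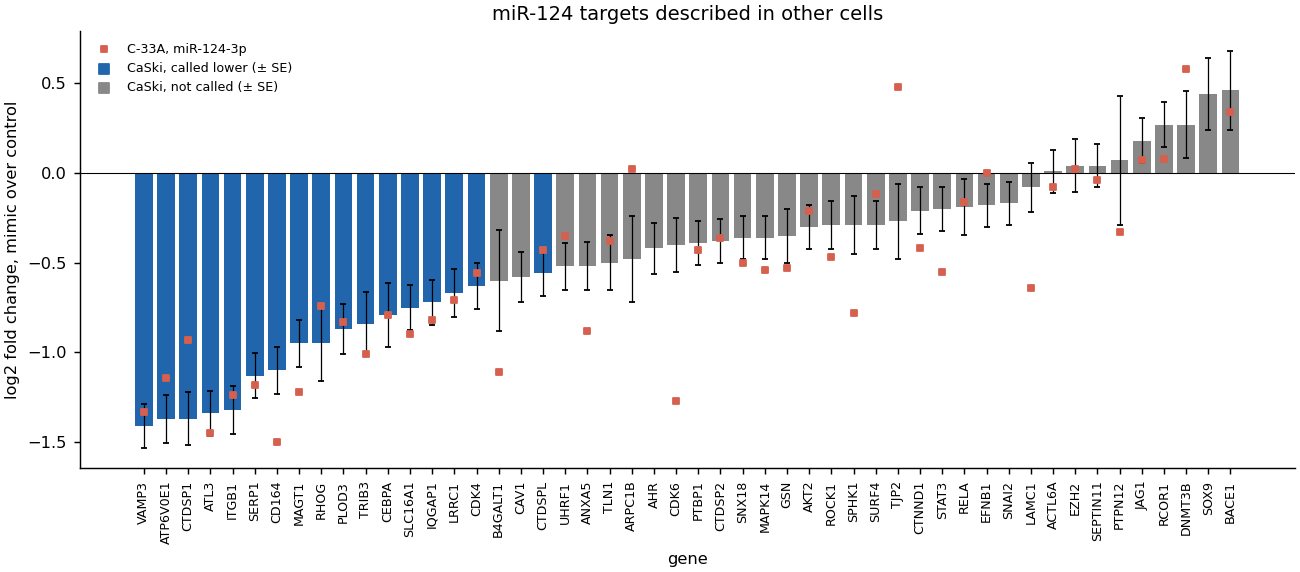
Log2 fold change of the mimic over control (y axis) for measured genes described as miR-124 targets in other cells (x axis, sorted), without the 1 listed below -6, as bars with SE for CaSki (blue called lower, grey not called) and squares for C-33A where the gene was measured there. The bars run from -1.41 (VAMP3) to 0.46 (BACE1), and most lie below 0.

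The other 2 CaSki tables share their controls with this one, so values are set side by side without a test. VAMP3 was at 0.01 with miR-23b-3p and 0 with miR-218-5p, ATL3 at 0.22 and 0.04, ITGB1 at -0.1 and 0.01, and CD164 at 0.24 and 0.12: these falls stood apart from both. TMEM134, at -1.16 with miR-124-3p, was also low with the others (-0.57 and -0.37). So were ID1 (-1.09, -0.6 and -0.6) and KRT13 (-1.48, -0.89 and -0.58). Over all falls the medians were -0.719 with miR-124-3p, -0.169 with miR-23b-3p and -0.0745 with miR-218-5p; over the 63 rises they were 0.78, 0.46 and 0.31. Relative to the other mimics, 85 falls (68.5%) were at -0.5 or lower, where 2.74% of measured genes were, and 22 of the 63 rises at 0.5 or higher, where 1.99% were; the same miR-124-3p libraries chose these genes. ANKRD34B (1.14, against -0.42 and -0.21), ANKRD22 (1.39, against -0.23 and -0.07) and DIO2 (1.12, against -0.17 and 0.2) had higher values with miR-124-3p than with either other mimic, while CASTOR2 (1.04, 1.04 and 0.92), INPP5F (0.53, 0.58 and 0.53) and TOMM20 (0.6, 0.71 and 0.63) had like values with each mimic. Other rises named above were also high with them: WWTR1 (0.78, 0.93 and 0.54), MET (0.64, 0.49 and 0.55), ANKRD52 (0.86, 1.05 and 0.25) and KSR1 (1.25, 0.96 and 0.77). Relative to the mean of both, they stood at 0.05 (WWTR1), 0.12 (MET), 0.21 (ANKRD52) and 0.38 (KSR1), and the median of all rises at 0.409.

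In C-33A, whose libraries are separate, the falls of CaSki were low as well. Of the falls, 118 were measured there, and 117 of these (99.2%) were below 0, against 52% of all genes measured in both lines, with a median of -0.696 (-0.718 in CaSki). The exception was ADAMTS1, at 0.06. By site, the C-33A medians of the falls were -0.727 for 86 genes with GTGCCTT, -0.586 for 14 with a 7mer-A1 or 6mer and -0.445 for 15 with none. Called lower in both lines were 43 genes, 34.7% of the CaSki falls and 53.8% of the 80 in C-33A, where 0.517% of measured genes were called lower and 0.116% higher. Of the 63 rises, 55 were measured in C-33A, with a median of 0.394 (0.761 in CaSki), and 4 (RHOB, ARFGEF3, DIO2 and ANKRD34B) were below 0. The 6 genes called higher in both were MAP2K6, CASTOR2, SLC4A8, ANKRD52, ATP9A and PGM2L1, and no gene was called in opposite directions. CASTOR2 was at 1.24 in C-33A (adjusted p = 2.42e-06) and MAP2K6 at 1.34. Fold changes followed transcript length in both lines, and the part of length in these shared directions was not tested.

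A test of the difference between the lines, gene by gene, passed for 0 of 12970 genes (normal test with recovered SEs, Benjamini-Hochberg; smallest adjusted p = 0.302), with 325 at an unadjusted p under 0.05. With SEs from the F score, a choice made after seeing the data, it again passed for 0, with 342 at an unadjusted p under 0.05 and a smallest adjusted p of 0.144. A p that misses the threshold does not show that the lines responded alike, and the C-33A mimic group holds only 2 samples. The lowest p belonged to RHOB, at 0.62 in CaSki and -0.37 in C-33A, a difference of 0.99 (adjusted p = 0.302), and to DIO2, at 1.12 and -0.33 (adjusted p = 0.33). CLIP3, ARFGEF3, ANKRD34B and TNFRSF19 came next, with differences of -1.27, 1, 1.44 and 1.17. RYR1, KRT13, WNT7A and LAD1 changed in CaSki but were not measured in C-33A.

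**Figure D5:**
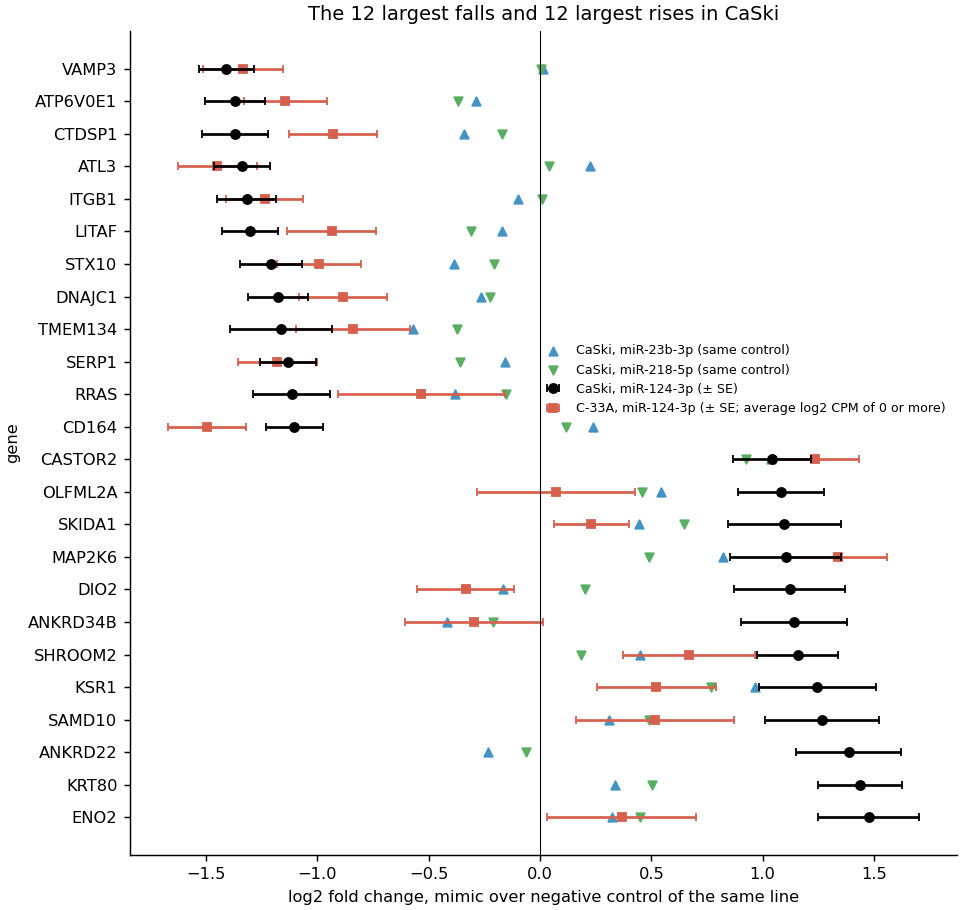
Log2 fold change, mimic over the control of the same line (x axis), for the 12 largest falls and 12 largest rises in CaSki among coding genes whose average log2 CPM was at least 1 (y axis): CaSki with miR-124-3p (black, with SE), C-33A with miR-124-3p (red, with SE), and CaSki with miR-23b-3p and miR-218-5p (triangles). For the falls, the black points lie between -1.41 and -1.1, the red ones between -1.5 and -0.53 (RRAS), and the triangles between -0.57 and 0.24; for the rises the red points spread from -0.33 to 1.34.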

How the data were processed

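Per the submitters' processing notes, FastQC 0.73, STAR 2.7.10b, featureCounts 2.0.3, edgeR 3.36.0 and GRCh38 (hg38) were used; their order and settings are not given in the sources used here. Each deposited table gives, per the file headers, log2 fold changes, average log2 CPM, F scores, p-values and FDR from the authors' own comparison. Adjusting the authors' p-values by Benjamini and Hochberg over the 61217 listed genes gave back their FDR. No count model was refitted, since values per sample are not analysed here. Residual degrees of freedom implied by F and p had a median of 31.5 over 14393 measured genes. That is more than 6 samples alone can give, so SEs and p-values rest partly on other genes or libraries. The SE beside a gene is its absolute log2 change over the square root of F. For the test between lines, and for calls after centring or subtracting a trend, it is that change over the normal quantile of p. The trend is a robust lowess (span 0.3, 3 rounds) on log2 transcript length and GC content. Sites were searched in GENCODE release 29; the heptamer was derived from a RefSeq miRNA with the same seed. Python 3.11.15, numpy 2.4.6, pandas 2.3.3, scipy 1.17.1 and statsmodels 0.14.6 were used, and scripts were tested on simulated data. Named genes were taken from the 12 largest falls and rises among protein coding genes with average log2 CPM not below 1, called members of each gene list with up to 4 others of lowest p, called genes without a site or with 3 or more, and those called in both lines, of which not all are named; further called genes are examples chosen after their values were seen. The gene lists, rules and alternatives were chosen with earlier results of these data known.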

Additional observations from a re-analysis of the deposited data

How the results depend on the processing

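No paired analysis was possible because the deposited tables hold no values per sample, and for the same reason no replicate could be left out. At an FDR under 0.01, 60 genes were lower and 17 higher, and at an FDR under 0.1 the higher genes were 95. With p adjusted over genes whose average log2 CPM was not below 0, 216 were lower and 158 higher, and not below 1, 237 and 170, since fewer genes were tested. With the length and GC trend subtracted, 36 genes were higher. A minimum size of change and centring kept both counts within 1.5 times. Leaving out the 205 genes at -6 or lower (chosen after seeing the data) removed no called gene, and without a refit it could not lower the counts. Without them the difference in median between genes with and without a site was -0.0638, against -0.0642 with them. The difference in median between genes with and without a site, -0.0642, was -0.123 for 8mers alone, -0.188 over 10 classes of 3′ UTR length, -0.142 with the trend subtracted, -0.127 against the other mimics, and 0.0522, of opposite sign, when 6mers were counted; the cause was not tested. Against the other 2 mimics, 126 of the 187 called genes moved by more than their SE, 58 did not, the median of the rises was 0.409 in place of 0.78, and 3 rises turned: INPP5F to -0.02, TOMM20 to -0.07 and RAD54L2 to -0.02. The test between lines passed for 0 genes under each alternative. Depth is unknown, and low genes such as KRT13 and FRMPD1 have low average log2 CPM.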

Other observations

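The falls included 6 genes for enzymes of mitochondrial fatty acid oxidation. They were picked after the values were seen and only from called genes, and how many other genes of that pathway did not fall was not counted, so they say nothing of the pathway as a whole. HADHA and HADHB, the subunits of the trifunctional protein, fell by 0.82 and 0.97 in the authors' deposited table (adjusted p = 0.00073 and 4.34e-05). ECI2, an enoyl-CoA isomerase, fell by 0.85, HADH, a short-chain hydroxyacyl-CoA dehydrogenase, by 0.72, HSD17B10 by 0.6 and ACADVL, the very long chain acyl-CoA dehydrogenase, by 0.59. In C-33A these 6 genes stood at -0.65 (HADHA), -0.96 (HADHB), -1.09 (ECI2), -0.73 (HADH), -0.56 (HSD17B10) and -0.17 (ACADVL), with HADHB and ECI2 called lower. In CaSki with miR-23b-3p, against the same controls, they stood at -0.26 (HADHA), -0.24 (HADHB), 0.02 (ECI2), -0.31 (HADH), -0.27 (HSD17B10) and -0.32 (ACADVL). With miR-218-5p the values were -0.09 (HADHA), -0.02 (HADHB), 0.06 (ECI2), -0.08 (HADH), -0.03 (HSD17B10) and -0.14 (ACADVL). HADHB and HSD17B10 have no match of 6 bases in their annotated 3′ UTR.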
